A study of Mus musculus with 6 samples.

Results

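Of the 6 kinases of the Src and Tec families considered here (Lck, Lyn, Yes1, Fgr, Txk and Tec), 4 were measured by a row of the arrays with a gene symbol of its own, among 22180 genes measured in all. These were Yes1 and Fgr of the Src family and Txk and Tec of the Tec family, each with 1 row, found by its symbol. No row was named Lck or Lyn in the platform annotation used, and both were not analysed here. RNA came from mouse iNKT cells (invariant natural killer T cells, which recognise lipids through a nearly fixed receptor), on 3 arrays from wild-type controls (WT) and 3 from mice whose PLZF is constitutively acetylated (PLZF_ON). PLZF is a transcription factor on which these cells depend, and the comparison asked how its acetylation bears on their transcripts. Replicates 1 and 2 of each group, 4 arrays, are those the study used. The deposit also holds a replicate 3 of each group. The sources used here do not give strain, age, organ, the construct behind the acetylated form, or how the cells were obtained. Whether replicates are separate animals is not stated in the labels, so the p-values cover the spread between these arrays, and that spread may be technical.

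Src family kinases sit at the inner face of the plasma membrane and start signalling from the T cell receptor by phosphorylating tyrosines in the receptor chains. They are held inactive by a phosphorylated tyrosine in their tail, which the kinase Csk adds and the phosphatase CD45 (Ptprc) removes. Tec family kinases act next, activating phospholipase C gamma and so the calcium signal. Lck and Fyn are the main Src family members of T cells, and Txk (also called Rlk) is a Tec family member of T cells, while Fgr, Lyn, Blk and Btk are best known from myeloid cells, natural killer cells or B cells.

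Txk and Tec lie next to each other on chromosome 5 with no gene listed between them, and Fgr lies on chromosome 4. Fgr and Yes1 each overlap a predicted gene in the RefSeq table (Gm36599 and Gm10461), whose part in these rows was not tested. The 250 bases before a transcription start (RefSeq, GRCm38.p6, minus strand for Tec and Txk and plus strand for Fgr, written 5′ to 3′ along the gene) are shown for these kinases, for Tec and Fgr because their levels were lower in PLZF_ON and for Txk as the neighbour of Tec. The windows are chr5:72868449-72868698 for Tec, chr4:132973845-132974094 for Fgr and chr5:72752778-72753027 for the first of the starts listed for Txk. Capitals mark GGAAG or its reverse CTTCC, the core of the sequence bound by ETS factors, a motif picked after the sequences were seen.
Tec: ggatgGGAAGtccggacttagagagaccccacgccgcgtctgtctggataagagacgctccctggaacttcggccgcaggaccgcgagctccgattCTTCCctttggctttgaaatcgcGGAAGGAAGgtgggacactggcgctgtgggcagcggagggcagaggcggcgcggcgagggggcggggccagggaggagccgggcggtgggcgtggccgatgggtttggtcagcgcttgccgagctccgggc
Fgr: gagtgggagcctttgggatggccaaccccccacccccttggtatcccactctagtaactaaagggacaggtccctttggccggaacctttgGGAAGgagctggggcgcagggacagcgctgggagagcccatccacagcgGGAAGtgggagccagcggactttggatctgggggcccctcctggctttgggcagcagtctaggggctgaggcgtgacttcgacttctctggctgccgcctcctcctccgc
Txk: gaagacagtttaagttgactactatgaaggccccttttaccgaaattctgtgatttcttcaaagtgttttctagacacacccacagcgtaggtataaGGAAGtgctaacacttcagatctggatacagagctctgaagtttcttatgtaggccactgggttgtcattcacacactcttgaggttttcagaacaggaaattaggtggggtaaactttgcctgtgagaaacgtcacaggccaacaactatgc
The core was found 4 times in the Tec window, where 2 of the matches overlap by 1 base, 2 times in that of Fgr and 1 time in that of Txk, on either strand. It was present in 64.1% of 32851 windows of the same length, so its presence sets none of these genes apart. The GC box GGGCGG (reverse CCGCCC), found in 32.7% of windows, was matched 2 times in the Tec window and 0 times in those of Fgr and Txk. The Runx core TGTGGT (reverse ACCACA), found in 14.0% of windows, was matched in none of these 3. The windows had a GC content of 68.4% for Tec, 64.4% for Fgr and 42.8% for Txk, beside a median of 52.4% over all windows. These matches are descriptions of letters and were not tested for binding.

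The arrays carried the markers of T cells. All 11 measured T and iNKT cell markers of 16 listed lay above the background limit, beside 47.1% of all rows. The limit is a log2 value of 5.21, the 95th percentile of the 6-array means of 1390 receptor genes for odours and pheromones. The 11 markers had a mean level of 9.94 to 10.23 in WT and 9.14 to 9.87 in PLZF_ON. At an unadjusted limma p under 0.05 over 4 arrays 4 were lower, beside 4.53% of all rows. These were Klrb1c (log2 difference -2.19), Tbx21 (-1.53), Cd44 (-1.06) and Il2rb (-0.98). Cd5 (0.77) and Zbtb16 (0.51) were higher, and none of the 11 passed after adjustment. Their part in the kinase values was not tested. Correlations between arrays lay between 0.957 and 0.973 across rows except for PLZF_ON replicate 3, whose correlations with the others lay between 0.895 and 0.898 and whose values were less spread (SD 1.79 against 1.97 to 2.01). That array also had the neutrophil transcript S100a8 at 7.29, against 2.61 to 3.09 on the other 5, and the CD8 chains Cd8a and Cd8b1 at 6.55 and 7.77, against 4.39 to 4.73 and 5.08 to 5.89. The 6-array values of the kinases are therefore given with and without it. Precision is limited throughout by the number of arrays.

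None of the 4 kinases passed the test across all rows (limma, Benjamini-Hochberg adjusted p under 0.05), which 0.102% of 23521 rows passed as higher and 0.068% as lower over the 4 arrays, and 0.0255% and 0.068% over 6. At an unadjusted p under 0.05 in limma, 2 of the 4 were lower in PLZF_ON, Tec and Fgr, and 0 were higher, beside 4.53% of all rows lower and 4.88% higher. Over 6 arrays these 2 were again lower and 0 higher, beside 3.32% and 2.45% of all rows, and only Tec was without PLZF_ON replicate 3. That count was also 1, Tec, without WT replicate 1, WT replicate 2 or PLZF_ON replicate 1 over 6 arrays, and 3, with Txk, without PLZF_ON replicate 2. The groups did not overlap, with PLZF_ON lower, for 3 of the 4 over 4 arrays and 2 of the 4 over 6 arrays, beside 19.3% and 6.22% of all rows, and for 0 of the 4 with PLZF_ON higher, beside 18.9% and 5.55%. Without PLZF_ON replicate 3 the count over the other 5 arrays was again 2 lower and 0 higher, beside 13.7% and 12.0% of all rows. The median log2 difference of the 4 was -0.53 over 4 arrays and -0.59 over 6, against 0.00 and 0.03 over all rows. Over 6 arrays without PLZF_ON replicate 3 it was -0.43, against -0.01 over all rows. With 4 genes picked by name, these counts describe the kinases and test nothing further.

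**Figure D1:**
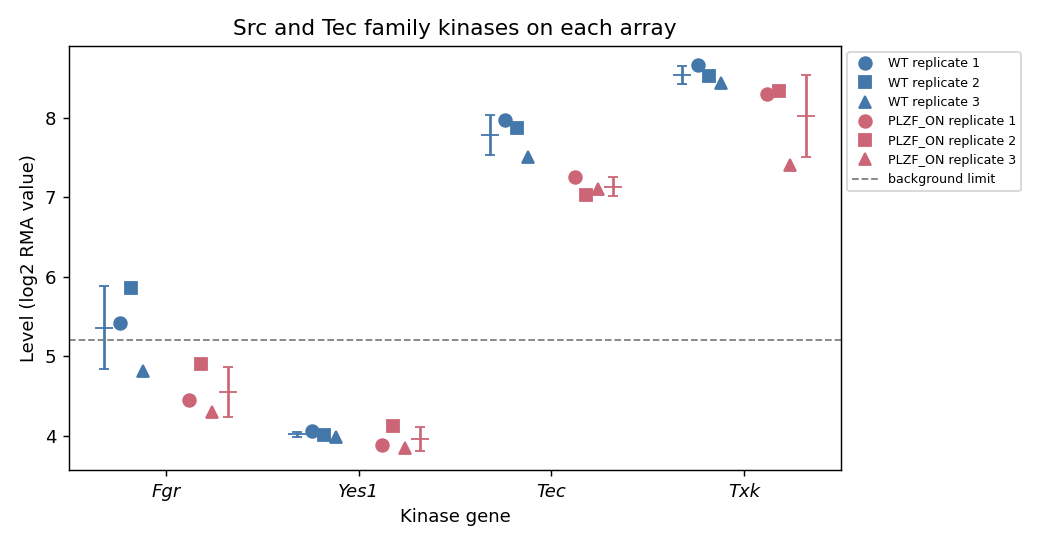
Levels (log2 RMA values, y axis) of Fgr, Yes1, Tec and Txk on each of the 6 arrays, with WT in blue and PLZF_ON in red, a marker shape for each replicate number, bars for the mean ± SD of 3 arrays, and a dashed line at the background limit of 5.21. All 3 PLZF_ON arrays lie below all 3 WT arrays for Tec and Txk, the Fgr groups overlap, and Yes1 lies below the limit on every array. Heights of different genes cannot be set against each other, since their probes differ.

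Tec, the founding member of its family, had the smallest p of the 4. The WT arrays, replicates 1 to 3, had log2 levels of 7.97, 7.87 and 7.50, and the PLZF_ON arrays had 7.26, 7.03 and 7.10. Every PLZF_ON array was below every WT array, the closest being 7.50 and 7.26, and all 6 were above the background limit. Over the 4 arrays the means were 7.92 ± 0.07 and 7.14 ± 0.17 (SD, n = 2 arrays each), a log2 difference of -0.78 (SE 0.15), or 1.72-fold, with a limma p of 0.00172 and an adjusted p of 0.15. A log2 difference as low or lower was seen in 1.15% of all rows. With all 6 arrays it was -0.66 (SE 0.18), at a limma adjusted p of 0.44, and leaving out PLZF_ON replicate 3 gave -0.64 (SE 0.18), at 0.253. The exact two-sided permutation test over the 6 arrays gave p = 0.1, the smallest that 3 against 3 arrays can give.

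Txk, the Tec family kinase that carries a palmitoylated cysteine string in place of a lipid-binding pleckstrin homology domain, was at 8.66, 8.52 and 8.44 in WT and at 8.30, 8.33 and 7.41 in PLZF_ON replicates 1 to 3. All arrays were well above the background limit, and the PLZF_ON arrays were again all below the WT arrays. PLZF_ON replicates 1 and 2 stood close under WT replicate 3, and PLZF_ON replicate 3 stood far below the rest. Over the 4 arrays the log2 difference was -0.27 (SE 0.13, limma adjusted p = 0.628), and 9.97% of all rows were as low or lower. Over 6 arrays it was -0.53 (SE 0.26, limma adjusted p = 0.92), and without PLZF_ON replicate 3 it was -0.22 (SE 0.13, limma adjusted p = 0.664), so that the size over 6 arrays rests largely on that array. Although the genes are neighbours, the difference of Txk over 4 arrays was smaller in size than that of Tec, and the gap between them was not tested.

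Fgr, a Src family kinase of myeloid and natural killer cells, was at 5.42, 5.86 and 4.81 in WT and at 4.45, 4.90 and 4.30 in PLZF_ON. WT replicates 1 and 2 were above the background limit, while WT replicate 3 and all PLZF_ON arrays were below it. The groups were apart over the 4 arrays, but over 6 arrays WT replicate 3 lay below PLZF_ON replicate 2. The means over 4 arrays were 5.64 ± 0.31 and 4.67 ± 0.32 (SD, n = 2 arrays each), a log2 difference of -0.96 (SE 0.22), or 1.95-fold, with a limma p of 0.00459 and an adjusted p of 0.221. A difference as low or lower was seen in 0.689% of all rows. Since the lower mean is under the limit, the WT mean was also set against the limit itself, which it exceeded 1.35-fold over 4 arrays and 1.11-fold over 6. With all 6 arrays the log2 difference was -0.81 (SE 0.29), at a limma adjusted p of 0.713. Leaving out PLZF_ON replicate 3 gave -0.69 (SE 0.30), at 0.527, and the exact two-sided permutation p over the 6 arrays was 0.2.

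Yes1, a Src family kinase found in many cell types, was at 4.06, 4.01 and 3.99 in WT and at 3.89, 4.12 and 3.85 in PLZF_ON. No array was above the background limit, so these values do not show a level of the transcript, and the groups overlapped. The log2 difference was -0.03 over 4 arrays (SE 0.14, limma adjusted p = 0.98) and -0.07 over 6 (SE 0.15, limma adjusted p = 0.961), or -0.01 (SE 0.13, limma adjusted p = 0.991) without PLZF_ON replicate 3.

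**Figure D2:**
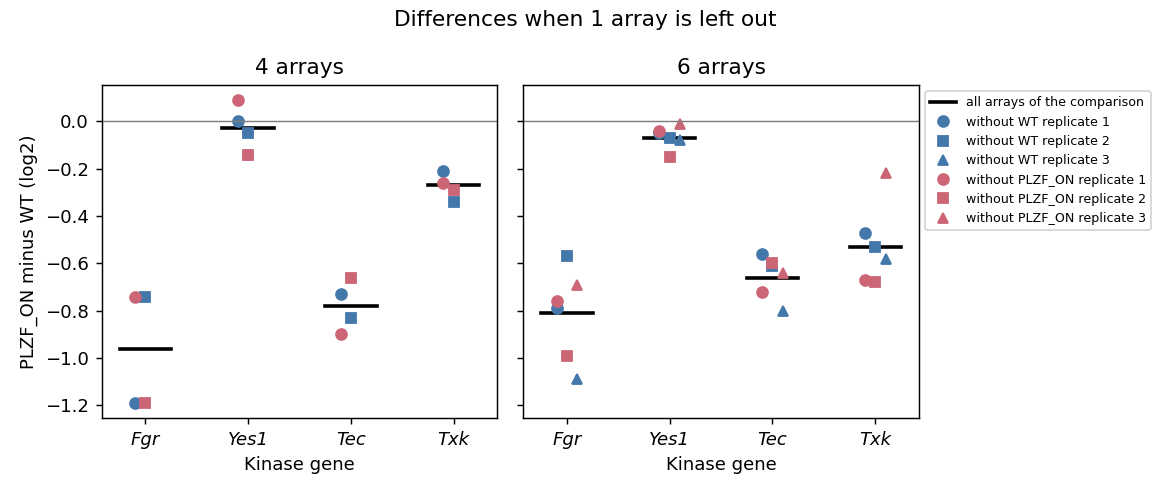
Log2 difference PLZF_ON minus WT (y axis) of each kinase over 4 arrays (left) and 6 arrays (right), as a black line with all arrays and as points with 1 array left out, blue for a WT and red for a PLZF_ON array. With an array left out Tec stays between -0.90 and -0.56 and Fgr between -1.19 and -0.57, Txk over 6 arrays moves from -0.53 to -0.22 without PLZF_ON replicate 3, and Yes1 lies around 0.

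Leaving out an array kept the sign of Tec, Fgr and Txk in every case. For Tec the difference over 4 arrays ran from -0.90 without PLZF_ON replicate 1 to -0.66 without PLZF_ON replicate 2. For Fgr it was -1.19 without WT replicate 1 or PLZF_ON replicate 2 and -0.74 when WT replicate 2 or PLZF_ON replicate 1 was omitted. The lowest adjusted p over all alternatives was 0.0762 for Fgr and 0.124 for Tec over 4 arrays, and 0.261 and 0.0864 over 6, the last with array weights.

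The genes with the most similar pattern over the 6 arrays were sought among 10036 genes with a mean at or above the median row. For Tec they were Ltb, encoding lymphotoxin beta, and Lax1, a membrane adaptor that dampens lymphocyte receptor signalling, each with Pearson r = 0.993. Their own log2 differences over the 4 arrays were -1.37 and -0.71. For Txk they were Sh3bgrl3 and Tnrc6a, each with r = 0.997, with differences of -0.37 and -0.17. Fgr and Yes1, with means under the background limit, were not searched. All points share the 2 groups and the array that stands apart, so these names are a description of likeness alone.

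Among the other kinases of both families, 8 were measured, 6 in the Src family (its relatives Frk, Srms and Ptk6 included) and 2 in the Tec family. Blk, a Src family kinase known from B cells and from interleukin-17-producing T cells, was the only one of the 8 to pass the test. It was at 7.11, 7.74 and 5.65 in WT and at 4.66, 4.78 and 4.83 in PLZF_ON, so that the groups did not overlap and all PLZF_ON arrays were under the background limit. Its log2 difference was -2.71 over 4 arrays (SE 0.22, limma adjusted p = 0.0206), and -2.08 over 6 (SE 0.47, limma adjusted p = 0.309), or -2.11 (SE 0.54, limma adjusted p = 0.215) if PLZF_ON replicate 3 is omitted. Since the PLZF_ON level was not above background, the WT mean was also set against the limit, which it exceeded 4.65-fold over 4 arrays and 3.08-fold over 6. The adjusted p was 0.0825 without PLZF_ON replicate 1 and 0.19 without PLZF_ON replicate 2, over 4 arrays. In Fgr as in Blk, WT replicate 2 was the highest array and WT replicate 3 the lowest of the WT arrays.

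Fyn, the Src family kinase that works with the SLAM receptors in iNKT cells, was at 8.55, 8.55 and 8.72 in WT and at 8.64, 8.79 and 8.08 in PLZF_ON. Its log2 difference was 0.16 over 4 arrays (SE 0.13, limma adjusted p = 0.816) and -0.11 over 6 (SE 0.21), but 0.11 (SE 0.13, limma adjusted p = 0.87) without PLZF_ON replicate 3, the lowest array. Src itself was at 5.63, 5.63 and 6.32 in WT and at 5.35, 5.52 and 6.42 in PLZF_ON, with a difference of -0.20 over 4 arrays (SE 0.14, limma adjusted p = 0.768). Frk, Srms, Ptk6, Btk and Bmx had 6-array means under the background limit, and their differences over 4 arrays lay between -0.18 and 0.19.

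**Figure D3:**
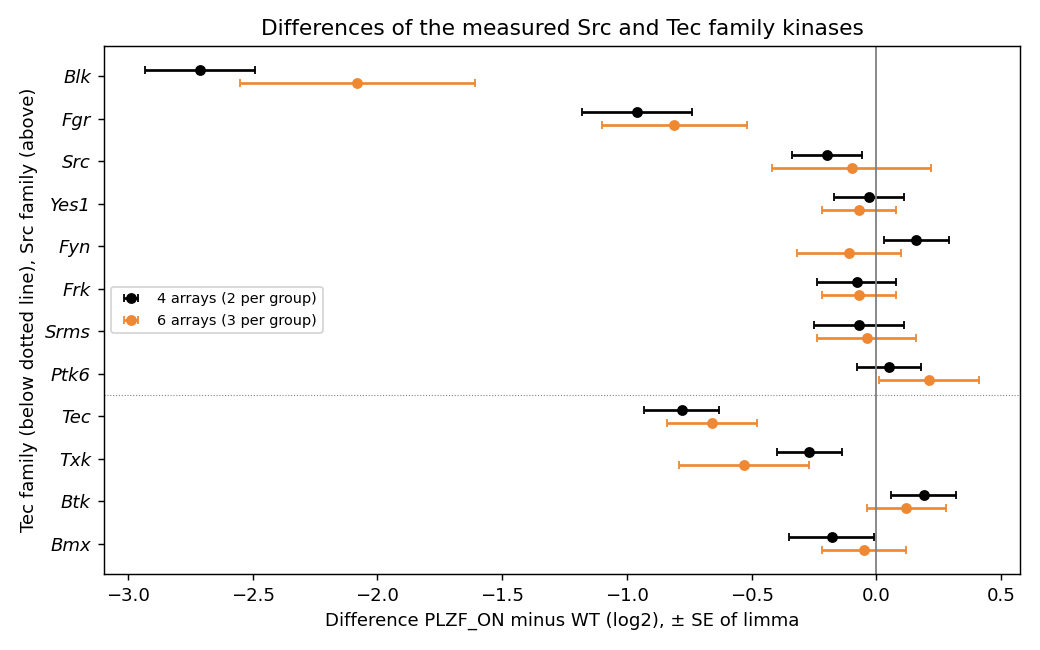
Log2 difference PLZF_ON minus WT (x axis, ± SE of limma) of the 12 measured kinases, the Src family above the dotted line and the Tec family below it, over 4 arrays (black) and 6 arrays (orange). Blk at -2.71, Fgr at -0.96 and Tec at -0.78 stand to the left over 4 arrays, while the other 9 lie between -0.27 and 0.19.

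Most regulators of Src family kinases had lower values in PLZF_ON over the 4 arrays. The list mixes genes that act in opposite ways on the kinases, such as Csk and Ptprc. Of 17 measured regulators of 18 listed, 12 were lower and 5 higher over the 4 arrays, with a median log2 difference of -0.24 against 0.00 over all rows. The median was -0.09 without WT replicate 1. Over 6 arrays 11 were lower and 6 higher, with a median of -0.44, but without PLZF_ON replicate 3 it was -0.15, with 9 lower and 8 higher. None passed limma after adjustment over all rows, while at an unadjusted p under 0.05 8 were lower and 1 higher, beside 4.53% and 4.88% of all rows. Among the 8, Dok1 had a 6-array mean of 5.14, under the background limit. Ptprj, the receptor phosphatase CD148, was at 6.99, 7.23 and 6.99 in WT and at 6.30, 6.31 and 5.62 in PLZF_ON. Its log2 difference was -0.80 (SE 0.14, limma adjusted p = 0.139). Pag1, the membrane adaptor that brings Csk to the Src family kinases, was at 7.35, 7.35 and 7.46 in WT and at 6.78, 6.53 and 6.15 in PLZF_ON, a difference of -0.70 (SE 0.15, limma adjusted p = 0.183). Lax1 had a difference of -0.71 (SE 0.15, limma adjusted p = 0.188) and the ubiquitin ligase Cbl had -0.47 (SE 0.15, limma adjusted p = 0.389). For Ptprj, Pag1, Lax1 and Cbl every PLZF_ON array was below every WT array, also over 6 arrays. Of the 17 regulators, 9 were lower without overlap over 4 arrays and 6 over 6 arrays, beside 19.3% and 6.22% of all rows. Higher without overlap were 2 and 0, beside 18.9% and 5.55%. The 1 regulator that was higher at an unadjusted p under 0.05 was Cblb, a ubiquitin ligase related to Cbl. It had a difference of 0.45 (SE 0.16, limma adjusted p = 0.462) and was named after its value was seen. The count of 8 lower regulators was 3 without WT replicate 1, 4 without PLZF_ON replicate 2 and 5 without PLZF_ON replicate 1, alternatives added after the data were seen. Over 6 arrays 6 regulators were lower and 0 higher at an unadjusted limma p under 0.05, beside 3.32% and 2.45% of all rows. If PLZF_ON replicate 3 is omitted 6 were lower and 2 higher, and when WT replicate 1 was left out 3 were lower.

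Csk itself was at 9.30, 9.15 and 8.69 in WT and at 9.02, 9.10 and 7.61 in PLZF_ON, with a log2 difference of -0.16 over 4 arrays (SE 0.14, limma adjusted p = 0.824). Ptprc had a difference of 0.26 (SE 0.14, limma adjusted p = 0.66). These 2 genes, which set and remove the inhibitory tail phosphate, were named for that role after their values were seen.

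Substrates and partners of the kinases were divided. Of 30 measured genes of 31 listed, 17 were higher and 13 lower over 4 arrays, with a median of 0.04, while over 6 arrays 13 were higher and 17 lower, with a median of -0.05. At an unadjusted p under 0.05 6 were higher and 2 lower over 4 arrays, beside 4.88% and 4.53% of all rows, so that the share of lower genes is near that of all rows. Among the 6, Syk was under the background limit on every array. Over 6 arrays 2 were higher and 1 lower, beside 2.45% and 3.32%. Without PLZF_ON replicate 3 these counts were 8 and 1, beside 2281 of all 23521 rows in either direction. In that setting 17 of the 30 genes were higher and 13 lower, with a median of 0.06. Over the 4 arrays 1 gene passed limma over all rows. That was Themis, which binds the adaptor Grb2 and tunes T cell receptor signals, at a log2 difference of 1.95 (SE 0.19, limma adjusted p = 0.0333). With 1 of these arrays left out the difference of Themis ran from 1.72 to 2.19. Over 6 arrays it was 1.86 (SE 0.19, limma adjusted p = 0.0341), and 1.99 (SE 0.17, limma adjusted p = 0.0113) without PLZF_ON replicate 3. With any other of the 6 arrays left out the limma adjusted p was 0.108 to 0.275. Cd4, the co-receptor that carries Lck to the T cell receptor, was at 8.01, 7.80 and 7.56 in WT and at 9.46, 8.90 and 8.91 in PLZF_ON. Every PLZF_ON array was above every WT array, with a difference of 1.28 over 4 arrays (SE 0.21, limma adjusted p = 0.115) and 1.30 over 6 (SE 0.21, limma adjusted p = 0.124), or 1.39 (SE 0.21, limma adjusted p = 0.054) without PLZF_ON replicate 3. The costimulatory receptor Cd28 had a difference of 0.64 (SE 0.14, limma adjusted p = 0.192) and Cd5, a surface receptor that restrains T cell receptor signals, had 0.77 (SE 0.17, limma adjusted p = 0.198). For Cd28, PLZF_ON replicate 3 at 9.13 was below all WT arrays (9.37 to 9.57), and for Cd5 it was at 9.62, within the WT range of 9.44 to 9.70, so the groups of both overlapped over 6 arrays. Their differences over 6 arrays were 0.35 (SE 0.28) and 0.51 (SE 0.23), and 0.69 and 0.76 without that array. The 2 lower genes, named after their values were seen, were Zap70, the kinase that Lck activates, at -0.37 (SE 0.13), and Sh2d2a, the adaptor TSAd that binds Lck, at -0.52 (SE 0.17). Their limma adjusted p-values were 0.45 and 0.419. The count of lower genes was 0 when either WT replicate 1 or PLZF_ON replicate 2 was left out, and 1 in the absence of PLZF_ON replicate 1.

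**Figure D4:**
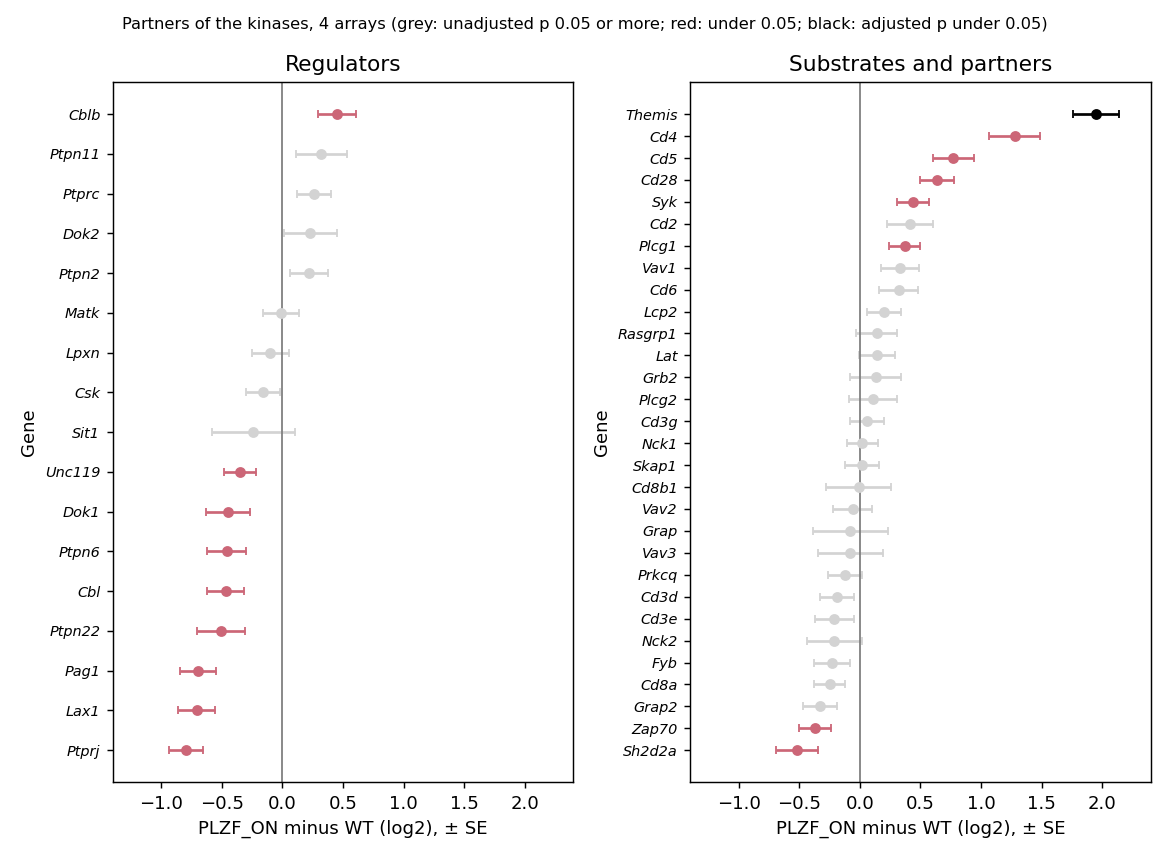
Log2 difference PLZF_ON minus WT over 4 arrays (x axis, ± SE of limma) of the 17 regulators (left) and the 30 substrates and partners (right), each ordered by difference. Red points have an unadjusted p under 0.05 and the black point, Themis, an adjusted p under 0.05. Of the 9 coloured regulators 8 lie below 0, and 6 of the 8 coloured substrates and partners lie above it. Dok1 and Syk, both coloured, had 6-array means under the background limit.

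Since Fgr and Blk are also transcripts of other blood cells, the markers of those cells were read on the same arrays. Counts under the background limit are to be read beside all rows, of which 47.1% were above it. Of 12 measured B cell markers of 14 listed, 11 were under the background limit, among them Ms4a1, Cd79a and Pax5. The mean log2 level of the B cell list was 4.40 to 4.47 in WT and 4.25 to 4.62 in PLZF_ON. The exception was Ighm, at 9.22, 8.98 and 9.20 in WT and 8.53, 7.65 and 7.84 in PLZF_ON, with a log2 difference of -1.01 over 4 arrays (SE 0.29, limma adjusted p = 0.337), whose part in the lower values of Fgr and Blk was not tested. Of 14 measured monocyte, macrophage and neutrophil markers of 15 listed, 10 were under the limit, and the mean level of the list was 4.38 to 4.49 in WT and 4.39 to 5.36 in PLZF_ON. The highest of these was PLZF_ON replicate 3, on which S100a8, S100a9 and Lyz2 were at 7.29, 7.20 and 6.58. The part of such cells in the Fgr values was not tested. The 5 measured natural killer cell markers had 6-array means above the limit, although on PLZF_ON replicate 2 Ncr1, Eomes, Klre1 and Fcgr3 were under it, at 4.80, 4.22, 4.82 and 4.47. Eomes was also under it on WT replicate 1 (4.60). Fcgr3 was also under it on WT replicates 1 and 2 (5.18 and 5.10) and PLZF_ON replicate 1 (5.07). The list had a mean of 6.23 to 7.33 in WT and 5.05 to 7.21 in PLZF_ON, the lowest in PLZF_ON replicate 2. Of 9 measured dendritic cell markers 7 were under the limit, with a mean of 5.10 to 5.20 in WT and 4.94 to 5.35 in PLZF_ON. Of 6 listed gamma-delta T cell markers 2 were measured, and no receptor gene was among them. Sox13 was at 6.74, 7.03 and 6.76 in WT and 6.33, 6.26 and 6.65 in PLZF_ON, a log2 difference of -0.59 over 4 arrays (SE 0.15, limma adjusted p = 0.283), and Cd163l1 had a difference of 1.15 (SE 0.28, limma adjusted p = 0.252). Their part in the values of Blk was not tested. Fewer cells of a kind and less RNA per cell cannot be told apart in such bulk samples.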

How the data were processed

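The deposited table holds log2 expression values, made by the authors with RMA per the submitters' processing notes (no version given), from Affymetrix whole-transcript arrays per the labels' protocols. RMA subtracts background, equalises the distributions of the arrays and summarises the probes of a row, and it compresses differences of dim genes. No source used here names the authors' genome build or annotation. Of 41345 rows, 23521 had exactly 1 symbol in the platform annotation and were tested, 1814 had several and 16010 were not listed. For a gene with several rows, that of highest 6-array mean was taken.

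Groups came from the sample titles. PLZF_ON was compared with WT in R 4.3.3 by limma 3.58.1 (a linear model with genotype alone, moderated variances, two-sided), over 4 arrays and over 6, and adjusted over all tested rows. The script was tested on simulated data. The members and gene lists were chosen with earlier results of these data known. Genes named beside the members were the other kinases of both families, the 4 of each list with the smallest p, and the 2 most alike per member above the background limit. Cblb, Csk, Ptprc, Dok1, Zap70, Sh2d2a, Syk and the cell type markers singled out were named after their values were seen. The alternatives tried were a block for the replicate number, each array omitted in turn, array weights, a trend in the variance, brighter rows alone, a second quantile normalization, centring on the median, testing every deposited row, and averaging the rows of a gene. Figures were drawn with matplotlib 3.10.9.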

Additional observations from a re-analysis of the deposited data

How the results depend on the processing

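Of 101 recomputed differences of the 4 kinases, 100 kept their direction, none passed the adjusted threshold, and 1 turned, Yes1 over 4 arrays without PLZF_ON replicate 1 (0.09; range -0.14 to 0.09 with an array left out), whose level is under the background limit. Among brighter rows alone Yes1 was not tested, nor was Fgr over 6 arrays, and Lck and Lyn had no row to test. The replicate number as a block left Tec at -0.78 over 4 arrays (limma adjusted p = 0.124) and -0.66 over 6 (0.366). Fgr with the block was at -0.96 over 4 arrays (SE 0.14, limma adjusted p = 0.0762) and -0.81 over 6 (SE 0.18, 0.262). The block brought no member past the adjusted threshold, while over 6 arrays Txk came under an unadjusted p of 0.05 with it (limma adjusted p = 0.667). The labels do not pair the numbers. Deviations from the group means of same-numbered arrays correlated at 0.09, 0.25 and 0.24 across rows. Those of differently numbered arrays correlated at -0.24 to 0.12. Deviations cancel out within a group, so these correlations depend on each other. WT replicate 1 minus WT replicate 2 correlated at 0.13 with PLZF_ON replicate 1 minus PLZF_ON replicate 2. Whether arrays of the same number share an effect was not tested, and the block is given as an alternative only. The number of rows passing limma over 4 arrays was 40, and 101 with the replicate block, 0 with all deposited rows (3042 under an unadjusted p of 0.05), and 0 to 106 with an array left out, lowest without PLZF_ON replicate 2 (1803 unadjusted) and highest without WT replicate 2. Over 6 arrays it was 22, and 5 with median centring, 0 with all deposited rows (2100 unadjusted), 259 with array weights and 0 to 107 with an array left out, highest without PLZF_ON replicate 3. It was 0 without WT replicate 1, WT replicate 2 or PLZF_ON replicate 2 (852, 960 and 1531 unadjusted), 1 without WT replicate 3 and 6 without PLZF_ON replicate 1. The cause of these shifts was not tested. The deposited values carry no detection call, and Fgr and Yes1 are limited by the background.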
